A study of Mus musculus with 24 samples.

Results

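The cytosolic ribosomal protein genes were described in the duodenum, the first segment of the small intestine, of male Cyp27b1 null mice. A gene was a member if its symbol in the deposited tables was Rpl or Rps followed by a number, with or without a short suffix, or was Rpsa, Rplp0, Rplp1, Rplp2 or Fau. Kinases named Rps6k were left out. This gave 85 of 25410 symbols: 46 genes of the large subunit, 32 of the small subunit and 7 paralogs (Rpl3l, Rpl7l1, Rpl10l, Rpl22l1, Rpl39l, Rps27l and Rps4y2). Gene expression was given as RPKM, which corrects read numbers for feature length and for sequencing depth, so levels of different genes are comparable per length.

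All mice lacked Cyp27b1, the enzyme that makes the hormone 1,25-dihydroxyvitamin D3 (1,25D), and all were fed diets deficient in vitamin D from weaning at 3 weeks. The 4 groups of 6 libraries were normal diet with vehicle, normal diet with 1,25D, rescue diet with vehicle and rescue diet with 1,25D. Calcium and phosphorus made 0.47% and 0.3% of the normal diet. In the rescue diet they were raised to 2% and 1.25%, and 20% lactose was added. At 8 weeks of age each mouse was given vehicle or 1,25D at 2 ng/g body weight, 6 h before its RNA was taken. The labels speak of 12 mice on each diet and 8 injected mice per group, beside 6 libraries per group, and do not tie a library to an animal. The p-values therefore measure the spread between libraries, which may be partly technical. No group of mice with Cyp27b1 was analysed here, so nothing below speaks of the deletion itself. In bulk tissue, fewer cells of a type and less RNA per cell cannot be told apart.

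Every cytosolic ribosome is built of a small subunit, which reads the messenger RNA, and a large subunit, which joins amino acids. Each subunit is a ribosomal RNA core carrying single copies of most of its proteins, so these genes are needed in nearly every cell, and they are heavily used in the dividing crypts and the protein-secreting cells of the intestine. Their messenger RNAs typically begin with a C followed by a run of pyrimidines, the terminal oligopyrimidine (TOP) tract, through which mTORC1 and Larp1 control mainly their translation. Because RNA amount was measured here, control of that kind would not be seen.

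To show the start regions, promoter sequences were taken from RefSeq, build GRCm38.p6, which held 64 of the 85 members. The build differs from the one named in the submitters' processing notes (mm9), so these coordinates were used for sequence only. The windows below run 5′ to 3′ on the gene's own strand from 30 bases before the annotated start to 20 bases from it. Capitals mark every copy of CTTTC or CTTTCC, the letters searched as a short pyrimidine run, and of CCGGAAG, a core to which Ets-type factors such as Gabpa can bind. The windows printed are examples picked for carrying such a copy, from genes whose values are described below. Windows of other genes described below, such as Rpl24, Rpl36a, Rplp0 and Rpl7l1, hold no such copy and are not printed.
Rpl28, chr7:4792935-4792984, plus strand: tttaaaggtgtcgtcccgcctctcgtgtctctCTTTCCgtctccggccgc
Rplp2, chr7:141447621-141447670, plus strand: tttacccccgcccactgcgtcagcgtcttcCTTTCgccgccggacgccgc
Rps27, chr3:90213629-90213678, minus strand: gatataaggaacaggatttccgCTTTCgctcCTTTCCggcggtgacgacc
Rpl38, chr11:114668550-114668599, plus strand: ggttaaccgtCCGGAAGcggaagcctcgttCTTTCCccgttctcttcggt
Rpl13a, chr7:45128726-45128775, minus strand: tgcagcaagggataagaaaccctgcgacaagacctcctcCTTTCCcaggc
Fau, chr19:6057917-6057966, plus strand: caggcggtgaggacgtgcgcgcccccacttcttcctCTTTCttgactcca
Rpl39l, chr16:10170198-10170247, plus strand: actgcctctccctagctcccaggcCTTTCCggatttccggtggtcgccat
Rpl26, chr11:68901536-68901585, plus strand: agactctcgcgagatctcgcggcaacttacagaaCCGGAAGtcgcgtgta
Rps3a, chr3:86142649-86142698, minus strand: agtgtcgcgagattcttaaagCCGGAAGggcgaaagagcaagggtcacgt
Rps21, chr2:180257349-180257398, plus strand: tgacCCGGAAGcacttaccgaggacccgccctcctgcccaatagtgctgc
Rpl5, chr5:107900498-107900547, plus strand: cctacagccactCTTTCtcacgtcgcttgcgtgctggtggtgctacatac

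In the window from 10 bases before to 20 bases from the annotated start, CTTTC was found on the transcribed strand in 15 of 64 members (23.4%), against 3.74% of 32851 promoters. The copy printed for Rpl5 lies upstream of this window and is not counted. On the opposite strand it was found in 4.69% of members and 3.65% of all promoters. The longer CTTTCC, which contains CTTTC, occurred in 14.1% of members and 1.28% of all promoters on the transcribed strand. The annotated start base was C in 32.8% of members and in 16.3% of all promoters. Over the 300 bases from 250 before to 50 from the start, read on both strands, CCGGAAG occurred in 39.1% of members against 8.86% of all promoters. GGGCGG, the core of an Sp1 site, occurred in 60.9% against 35.7%. TATAAA, the TATA box, occurred in 9.38% against 13.6%, and the E-box CACGTG, to which Myc can bind, in 7.81% against 7.15%. Members with and without CTTTC showed median levels of 66.75 RPKM (n = 15) and 117.6 RPKM (n = 49). A match of letters is a description and not a measured start or binding site.

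The genes spanned a wide range of levels although most of their proteins enter the ribosome in single copies. Over 24 libraries the 78 genes other than the paralogs had a median of 119 RPKM with quartiles of 44.6 and 227 RPKM. Of these, 44 lay above 100 RPKM, 30 between 10 and 100 RPKM and 4 under 10 RPKM. The large subunit (median 116 RPKM) and the small subunit (median 122 RPKM) lay close together, as the plot of levels ordered by mean shows. Rpl5, which with Rpl11 carries 5S ribosomal RNA into the large subunit, was the highest member in 24 of 24 libraries. Its mean was 2102 ± 359 RPKM (SD over 24 libraries), which was 17.7 times the median. Rpl26 followed with 681 ± 128 RPKM, Rps23, a protein of the decoding site, with 666 ± 128 RPKM, Rpl41, a very short peptide, with 531 ± 98.0 RPKM, and Rps3a with 501 ± 93.0 RPKM. The order of Rpl26 and Rps23 differed between libraries and is not resolved. In normal vehicle replicate 1 they lay at 656.8 and 668.9 RPKM, and in normal vehicle replicate 2 at 907.5 and 855.8 RPKM. Together these 5 genes made 30.03% of the members' summed RPKM.

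**Figure D1:**
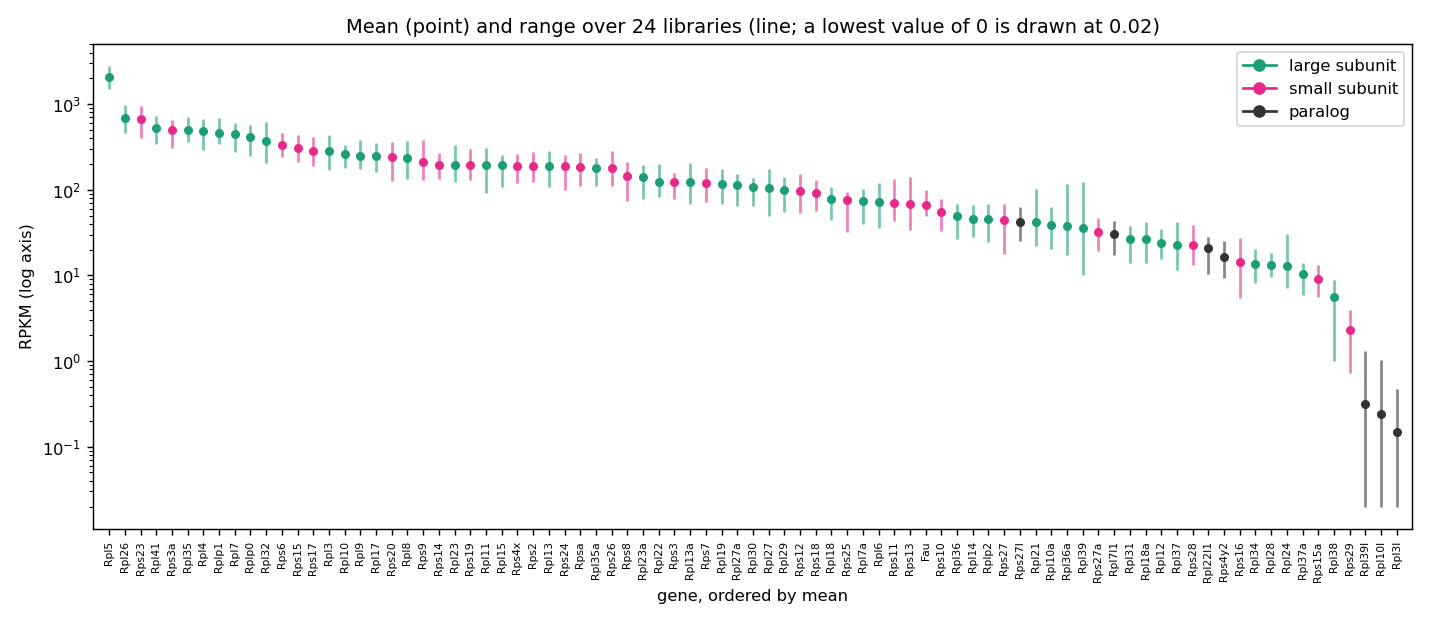
RPKM of each ribosomal protein gene (log axis), with the mean over 24 libraries as a point and the range as a line, in green for the large subunit, pink for the small subunit and dark grey for paralogs; Rps21, at 0 throughout, and 1 gene not reported here are not drawn. Rpl5 (2102 RPKM) stands apart at the top and Rpl39l, Rpl10l and Rpl3l (0.313, 0.239 and 0.150 RPKM) at the bottom, while both subunits spread over the same range.

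At the other end, Rps21, a small subunit gene, was listed at 0 in all 24 libraries. Since other genes of the same subunit were at up to 666 RPKM, this 0 can be a failed estimate and is not read as absence. Rps29, a small zinc-binding protein of the small subunit, lay at 2.29 ± 0.850 RPKM, Rpl38 at 5.64 ± 1.84 RPKM and Rps15a at 9.05 ± 1.84 RPKM. The paralogs Rpl39l (0.313 RPKM), Rpl10l (0.239 RPKM) and Rpl3l (0.150 RPKM) were near 0. Rpl3l is a muscle form of Rpl3, and Rpl10l and Rpl39l are best known from the testis. Rpl3l, Rpl10l and Rps21 did not pass the filter of 0.5 RPKM in at least 6 libraries, and 82 members were tested.

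These levels can depend on how reads were assigned, because ribosomal protein genes have many processed pseudogenes. That dependence was not tested. In GENCODE vM21 transcripts, 84 members were matched (Rps4y2 was not), and 81 of them shared at least 1 stretch of 50 bases with the transcript of another gene, with a median of 10 other genes. Rpl5 shared 93.8% of its 50-base stretches with 15 other genes, of which 14 are pseudogenes. Rpl24 shared 81.7% and Rpl28 47.4%. Among the low genes, Rps15a shared 6.37%, Rps21 26.4%, Rps29 35.8% and Rpl38 52.1%. The 45 members sharing 50% or more had a median of 118 RPKM, and the other 39 a median of 70.5 RPKM. Across the 84 members, Spearman's rho between mean RPKM and the shared percentage was 0.237, and that between mean RPKM and transcript length was 0.128. These are descriptions over genes, which share libraries and are not independent replicates. How the authors treated reads with several matches is not given in the sources used here.

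Introns of these genes also carry small nucleolar RNAs (snoRNAs), which guide the modification of ribosomal RNA. By the same annotation 30 of the 84 members hold 58 snoRNA genes within the gene body on the same strand, and these members are called hosts. Of the 58, 26 have an entry in the deposited tables. Several entries, such as Snord68 in Rpl13, Snord83b in Rpl3 and Snord72 in Rpl37, lay at 0 RPKM. Snora65 lay at 30.2 RPKM, above its host Rpl12 at 24.1 RPKM. Host genes had a median of 123 RPKM and the others 91.5 RPKM. Rps3, which hosts Snord15a and Snord15b, lay at 123 RPKM, and the entries of these 2 snoRNAs summed to 128 RPKM. Rpl13a, a frequent reference gene, hosts 4 snoRNA genes whose entries summed to 8.61 RPKM against 122 RPKM for the host. The entry of Snora70 in Rpl10 lay at 3.10 RPKM against 259 RPKM for Rpl10.

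Summed over the members, the level was a small part of each library's summed RPKM. In normal diet with vehicle the share of a library's summed RPKM had a lowest value of 1.78%, a median of 2.77% and a highest value of 3.24%. In normal diet with 1,25D these were 2.26%, 2.34% and 2.53%. In rescue diet with vehicle they were 2.04%, 2.69% and 3.24%. In rescue diet with 1,25D they were 2.00%, 2.57% and 2.77%. All 4 groups overlap, and the plot of shares by library shows that the normal diet libraries with 1,25D lay closest together.

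**Figure D2:**
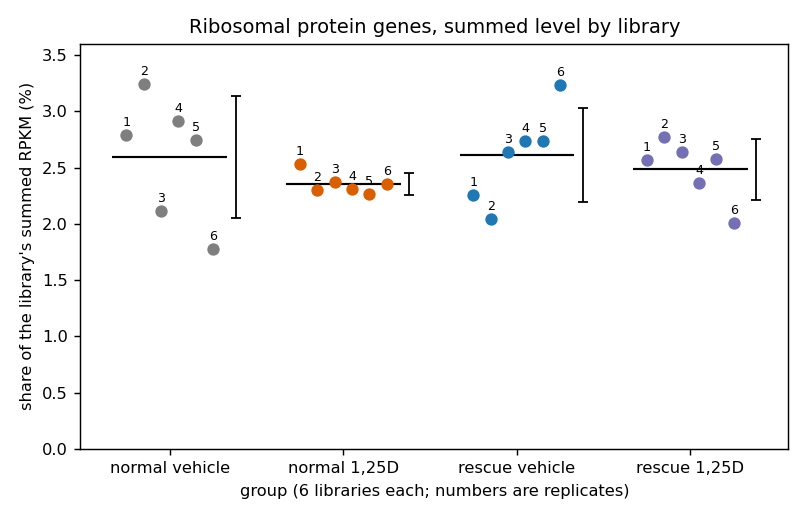
Share of each library's summed RPKM that came from ribosomal protein genes (%), with 1 point per library and its replicate number, the group mean as a line and the SD beside it (n = 6 per group). The 1,25D libraries on the normal diet sit between 2.26% and 2.53%, inside the range of normal diet with vehicle, 1.78% to 3.24%.

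The spread of the members' mean log2(RPKM + 0.5) within groups differed in size. Its SD was 0.39 in normal diet with vehicle, 0.04 in normal diet with 1,25D, 0.28 in rescue diet with vehicle and 0.16 in rescue diet with 1,25D. The same SD over all symbols tested was 0.23, 0.08, 0.12 and 0.15. The difference in spread was not tested. A few libraries made the extremes. Normal vehicle replicate 6 was the lowest of its group in 70 of 82 members, rescue vehicle replicate 2 in 70 of 82 and rescue 1,25D replicate 6 in 51 of 82. Normal vehicle replicate 2 was the highest of its group in 38 of 82. Such counts were not made over all symbols. The median log2(RPKM + 0.5) over all symbols tested was also lowest of its group in normal vehicle replicate 6 (1.61) and rescue 1,25D replicate 6 (1.87). It was highest of its group in normal vehicle replicate 2 (2.28). In rescue vehicle replicate 2 it was 2.08, inside its group's range of 1.98 to 2.22. Without normal vehicle replicate 6 the SD of the members' mean in that group was 0.24.

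**Figure D3:**
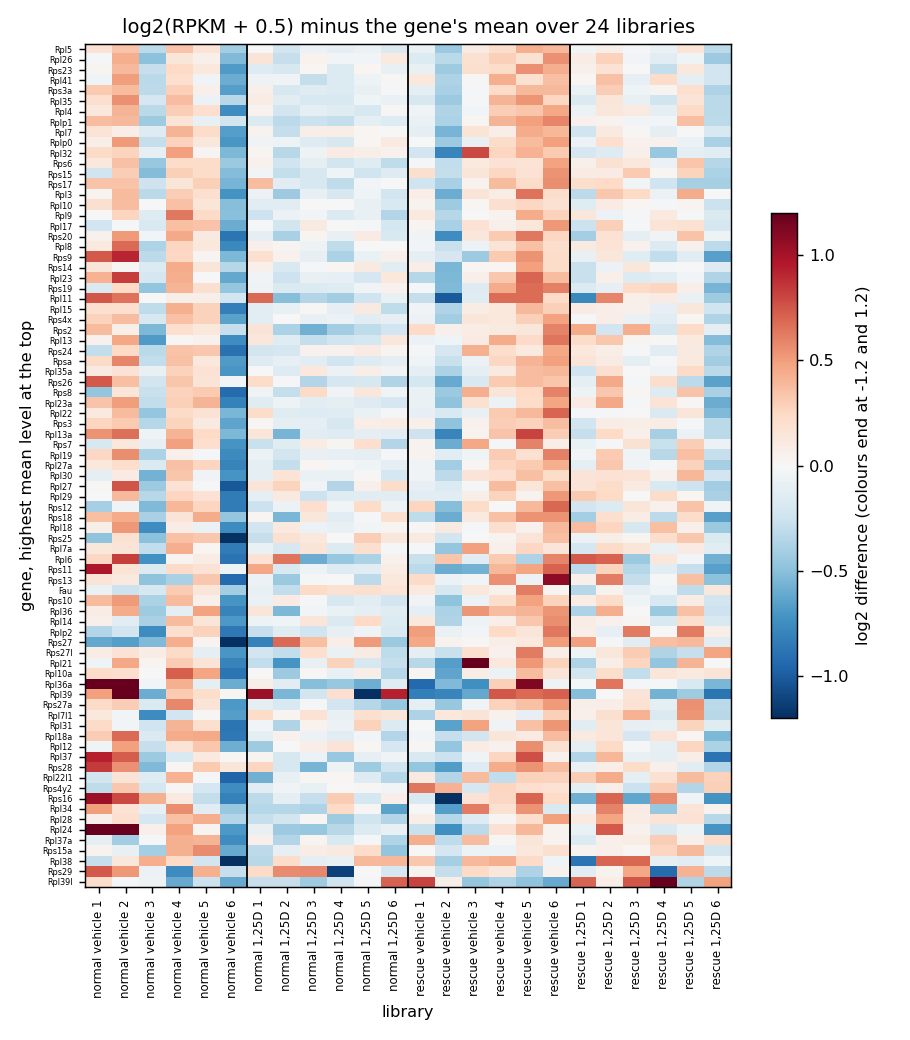
Difference of log2(RPKM + 0.5) from the gene's own mean over 24 libraries, for 81 of the 82 genes tested (rows, highest mean at the top) and 24 libraries (columns, 4 groups divided by black lines); red is above and blue below the mean. Whole columns take 1 colour, such as normal vehicle 6 with 79 of 82 genes below their mean and rescue vehicle 6 with 78 of 82 above. The same counts were not made over all symbols.

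Normal vehicle replicate 6 also stood apart in other values, so the members' medians and the leading genes of the comparisons that use its group are also given without it. Genes of the exocrine pancreas, a gland whose duct opens into the duodenum, made 18.03% of its summed RPKM, and 0.795% to 6.10% in the other libraries of its group. The absolute read depth is unknown. Relative depth, estimated from the steps between low values, ran from 0.589 to 1.60 over libraries other than normal vehicle replicate 6. For that library and for normal 1,25D replicate 4 the estimate moved by more than 0.5 on the log2 scale with the rows used, so their depth is not settled. Cyp27b1 itself was at most 0.452 RPKM in any library, while the extent of the deleted part is not stated in the labels. The injection labels were checked on a known target of the hormone: Cyp24a1, the enzyme that degrades 1,25D, lay between 0.0160 and 4.03 RPKM in the vehicle libraries and between 92.1 and 1036 RPKM in the 1,25D libraries.

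With these shifts of whole libraries taken out, most members varied less within groups. The median within-group SD of a member was 0.32 on the log2 scale. After the library's mean over the members was subtracted from each value it was 0.19, and it was smaller for 78 of 82 members. The subtraction removed 50.4% of the members' within-group variance. Part of such a decrease follows from subtracting a mean that contains the gene itself. Before subtraction, 1696 symbols with a mean log2 level at or above the members' lower quartile had a median within-group SD of 0.29. Values after a like subtraction are not given for those symbols, so the decrease is not shown to be particular to the members. The steadiest genes after subtraction were Rpl5 (SD 0.07), Rps4x (0.07), Rps3a (0.07) and Rpl4 (0.08), each above the median level. The SD grew for Fau (0.24 to 0.26), Rpl37a (0.29 to 0.30), Rps4y2 (0.27 to 0.32) and Rpl39l (0.47 to 0.57).

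**Figure D4:**
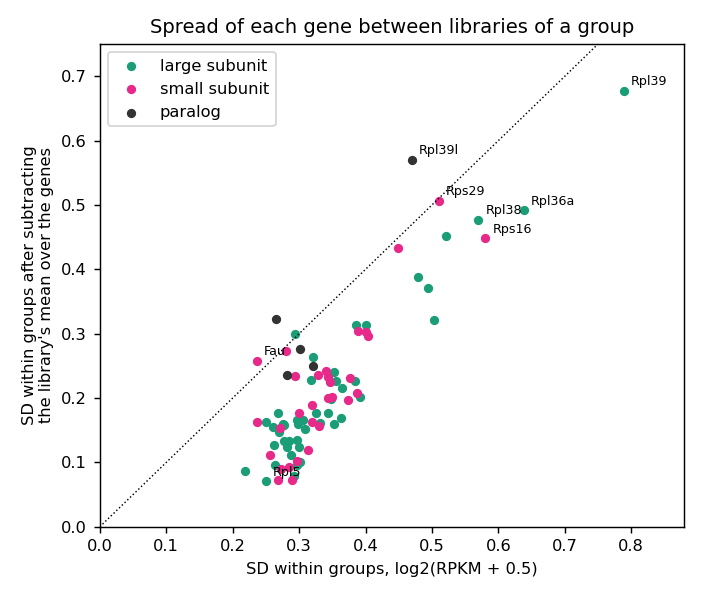
Within-group SD of log2(RPKM + 0.5) for each of 82 genes before (horizontal axis) and after (vertical axis) subtracting the library's mean over the genes; the dotted line marks equality and colours are as in the plot of levels. Most genes lie below the line, while Rpl39, Rpl36a, Rps29 and Rpl38 keep SDs between 0.48 and 0.68.

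The most variable members at 1 RPKM or more were Rpl39 (within-group SD 0.79), which lines the exit tunnel of the large subunit, Rpl36a (0.64), Rps16 (0.58), Rpl38 (0.57) and Rpl6 (0.52). Rpl39 ran from 10.1 to 123.6 RPKM over 24 libraries, a 12.3-fold range, whereas Rpl5 ran from 1517 to 2791 RPKM, a 1.84-fold range. The highest Rpl39 value was that of normal vehicle replicate 2. That library and normal vehicle replicate 1 were also the 2 highest of their group for Rpl24, Rpl36a, Rpl37, Rps16 and Rps9, genes named here after their values were seen.

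The first comparison asked what 1,25D did to these genes on the normal diet 6 h after injection. No ribosomal protein gene was called as changed. With limma, 0 of 82 members passed a Benjamini-Hochberg adjusted p under 0.05, where 1.84% of 20006 symbols did, and 4 of 82 had an unadjusted p under 0.05, against 12.0% of all symbols. In 63 of 82 members the log2 fold change was below 0, against 41.2% of all symbols. Members shifted together by library, so counts of signs here and below are not independent. The median log2 fold change was -0.07 over members and 0.05 over all symbols. The members' median stayed below 0 under other scalings, from -0.08 to -0.20. As deposited it was -0.08 for the large subunit, -0.09 for the small subunit and 0.13 for the 5 paralogs tested. The 95% interval lay within a 2-fold change in either direction for 79 of 82 members (83.9% of all symbols) and within 1.5-fold for 54 (45.3% of all symbols). For no member were the 2 groups' libraries free of overlap, which was so for 2.22% of all symbols.

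**Figure D5:**
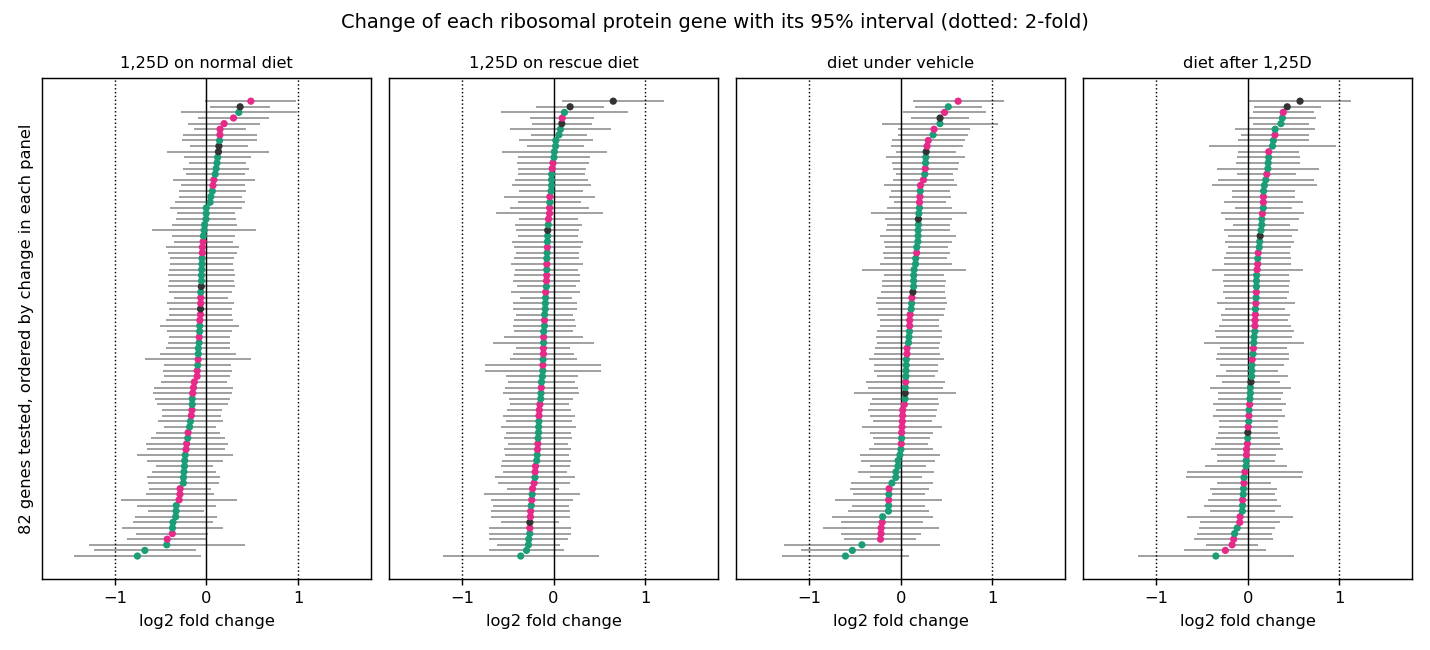
Log2 fold change of 82 ribosomal protein genes with its 95% interval in 4 comparisons, ordered within each panel, with dotted lines at 2-fold; colours are as in the plot of levels. The points centre slightly below 0 for 1,25D on both diets and slightly above 0 for both diet comparisons as deposited (the last 2 medians turn with the scaling), and 77 to 80 of 82 intervals stay within 2-fold.

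The 4 members with the smallest p in this comparison were Rpl24, Rpl7l1, Rpl36a and Rpl28. Rpl24, which forms a bridge between the subunits, had a lowest value of 7.30, a median of 14.9 and a highest value of 30.3 RPKM with vehicle, and 8.71, 10.1 and 11.4 RPKM with 1,25D. Normal vehicle replicates 1 and 2, both at 30.3 RPKM, lay far above the other vehicle libraries, and the groups overlap. Its log2 fold change was -0.67 ± 0.27 (SE; adjusted p = 0.263, limma), -0.50 without either replicate 1 or replicate 2 and -0.89 without replicate 6 (adjusted p = 0.062).

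Rpl36a, a protein at the site where transfer RNA leaves, gave 22.1, 39.2 and 116.5 RPKM with vehicle and 22.3, 27.4 and 35.5 RPKM with 1,25D. The same 2 vehicle libraries were highest. The log2 fold change was -0.75 ± 0.34 (adjusted p = 0.346, limma), -0.49 without normal vehicle replicate 2 and -0.97 without replicate 6 (adjusted p = 0.161). Rpl28, of the large subunit, gave 9.99, 14.2 and 17.6 RPKM with vehicle and 9.46, 10.7 and 13.1 RPKM with 1,25D. Its libraries overlap at the low end, and the log2 fold change was -0.33 ± 0.15 (adjusted p = 0.359, limma) and -0.42 without normal vehicle replicate 6 (adjusted p = 0.163). With upper-quartile scaling Rpl28 passed the test, at -0.44 ± 0.12 (adjusted p = 0.0486), the only member to do so under a change of scaling alone, in a fit that called 369 symbols (1.84%). Rpl7l1, a paralog of Rpl7 that takes part in large subunit assembly, had 17.4, 27.1 and 32.5 RPKM with vehicle and 27.8, 33.3 and 34.6 RPKM with 1,25D. Its log2 fold change was 0.37 ± 0.16 (adjusted p = 0.317, limma), the opposite sign from the other 3, and 0.29 without normal vehicle replicate 6 (adjusted p = 0.472). With the mean log2 level of villus enterocyte markers as a covariate it passed the test at 0.74 ± 0.16 (adjusted p = 0.0305), in a fit that called 182 symbols (0.91%). The summed levels of these markers do not overlap between the groups compared, so this fit separates the covariate from the injection poorly.

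Markers of other cells moved in the same comparison, and their part in the members' values was not tested. The 14 villus enterocyte markers, such as Alpi and Apoa4, summed to 2623 to 6480 RPKM with vehicle and 6916 to 13380 RPKM with 1,25D, and 3 of 14 were called higher. With the mean log2 value of this list as a covariate the members' median turned to 0.215 and that of all symbols was 0.12. Since the sums do not overlap between these groups, such a fit separates the covariate from the injection poorly. The 27 exocrine pancreas markers found summed to 4921 to 100200 RPKM with vehicle and 3071 to 23050 RPKM with 1,25D, with a median log2 fold change of -3.32 and 0 of 27 called. With the pancreas score as a covariate the members' median was -0.21, and 0 members were called. The 13 crypt and cycling cell markers summed to 403 to 863 RPKM with vehicle and 395 to 619 RPKM with 1,25D, with 0 called. No listed marker of these cells was at 0 throughout. Without normal vehicle replicate 6 the members' median was -0.21 and that of all symbols -0.02. In that fit 72 of 82 members were below 0, against 53.7% of all symbols, and 16 had an unadjusted p under 0.05 by limma, against 13.4% of all symbols. Without normal vehicle replicate 4 the members' median was -0.01.

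On the rescue diet, 1,25D was again followed by no called change among these genes. By limma 0 of 82 passed, against 0.145% of all symbols, and 1 of 82 had an unadjusted p under 0.05, against 4.83% of all symbols. In 71 of 82 members the log2 fold change was below 0, against 39.1% of all symbols. The median was -0.10 over members and 0.06 over all symbols, and for the small subunit 30 of 31 members were below 0. Rps15a was the small subunit gene above 0. These genes shift together by library, so the signs are not independent. The members' mean log2 level was 6.54 ± 0.28 with vehicle and 6.45 ± 0.16 with 1,25D (SD, n = 6 each), with overlapping libraries. The sign of the median held under the scalings tried, while its size ran from -0.02 (rescaled without the pancreas list) to -0.15 (median-of-ratios). It was -0.20 without rescue vehicle replicate 2, and -0.06 when replicate 6 of either rescue group was left out. The 95% interval lay within 2-fold for 80 of 82 members and for 81.2% of all symbols. No member's libraries were free of overlap, which held for 0.365% of all symbols.

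Rpl39l had the smallest p on the rescue diet, at values close to 0. It gave 0, 0.0705 and 0.833 RPKM with vehicle and 0.0890, 0.646 and 1.31 RPKM with 1,25D. The log2 fold change on the log2(RPKM + 0.5) scale was 0.65 ± 0.27 (adjusted p = 0.878, limma). Rps4y2 followed at -0.26 ± 0.15, Fau, a ubiquitin-like protein fused to a small subunit protein, at -0.23 ± 0.14, and Rpl22 at -0.27 ± 0.17, each with an adjusted p of 0.878. Fau ran from 57.6 to 101 RPKM with vehicle and from 51.8 to 72.5 RPKM with 1,25D, with overlapping groups. Villus enterocyte markers summed to 2485 to 12050 RPKM with vehicle and 1856 to 9808 RPKM with 1,25D, and 0 of 14 were called. Highest were rescue vehicle replicate 2 and rescue 1,25D replicate 6, with the lowest crypt sums of their groups (592 and 454 RPKM). Rescue vehicle replicate 6 had the lowest villus and highest crypt sum (1366 RPKM) of its group. Rescue 1,25D replicate 2, highest of its group in 35 of 82 members, lay inside the villus range (4788 RPKM). The part of these cells was not tested. With the villus score in the fit the members' median was -0.21 and 13 of 82 had an unadjusted p under 0.05, against 8.78% of all symbols in the same fit.

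The diets were compared under vehicle to ask what the rescue diet alone was followed by. This comparison shares the normal vehicle libraries with the first one, so the 2 are not independent. By limma 0 of 82 members passed, and 0 of all symbols tested did (0%), while 4 of 82 had an unadjusted p under 0.05, against 7.18% of all symbols. In 63 of 82 members the log2 fold change was above 0, against 68.9% of all symbols. The median was 0.10 over members and 0.10 over all symbols. Other scalings moved the median of all symbols by up to 0.13, from 0.10 as deposited to -0.03 with upper-quartile scaling, and turned the members' median to values from -0.03 to -0.05, except rescaling without the ribosomal protein genes, which gave 0.03. Without normal vehicle replicate 6 the members' median was -0.04 and that of all symbols 0.02, so no direction is given for the set. The 95% interval lay within 2-fold for 77 of 82 members and for 86.5% of all symbols. For 0.225% of all symbols and for no member the libraries did not overlap.

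Rplp2, which with Rplp1 forms the stalk that recruits elongation factors, had the smallest p under vehicle. It gave 24.3, 36.2 and 54.0 RPKM on the normal diet and 42.1, 50.8 and 68.9 RPKM on the rescue diet. The upper normal diet libraries reach into the rescue range. Its log2 fold change was 0.52 ± 0.18 (adjusted p = 0.58, limma), and 0.41 without normal vehicle replicate 6. Rps27, a zinc-binding small subunit protein, gave 17.7, 28.2 and 57.2 RPKM on the normal diet and 42.3, 45.0 and 59.8 RPKM on the rescue diet, with a log2 fold change of 0.63 ± 0.24 (adjusted p = 0.624, limma), and 0.47 without normal vehicle replicate 6. Rps4y2 gave a log2 fold change of 0.43 ± 0.15 and Rps13 one of 0.48 ± 0.22, with adjusted p of 0.59 and 0.679. Without that library they were 0.32 and 0.33, and each of the 4 genes had an adjusted p of 1. The pancreas markers had a median log2 fold change of -2.95 in this comparison, with 0 of 27 called. The villus enterocyte markers summed to 2623 to 6480 RPKM on the normal diet and 2485 to 12050 RPKM on the rescue diet, with a median of 0.48, 4 of 14 at an unadjusted p under 0.05 and 0 called. With the villus score in the fit the members' median was 0.26 and that of all symbols 0.14. In that fit 22 of 82 members had an unadjusted p under 0.05, against 16.3% of all symbols, and the smallest adjusted p of a member was 0.0998. The part of these cells was not tested.

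After 1,25D, the rescue diet was compared with the normal diet, and 0 of 82 members passed by limma, against 0.0100% of all symbols. An unadjusted p under 0.05 was found for 5 of 82 members, against 8.38% of all symbols. The log2 fold change was above 0 in 61 of 82 members and in 70.7% of all symbols. The median was 0.08 over members and 0.12 over all symbols, and with median-of-ratios scaling the members' median turned to -0.01. The 95% interval lay within 2-fold for 80 of 82 members (80.9% of all symbols), and the libraries overlapped for every member tested, as they did for all but 0.815% of symbols.

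Rpl22l1, a paralog of Rpl22, gave 13.7, 18.9 and 21.0 RPKM on the normal diet and 19.1, 25.3 and 28.3 RPKM on the rescue diet after 1,25D. The log2 fold change was 0.43 ± 0.18 (adjusted p = 0.535, limma). Rpl28 gave 9.46, 10.7 and 13.1 RPKM on the normal diet and 10.1, 14.3 and 18.1 RPKM on the rescue diet. Its log2 fold change was 0.36 ± 0.15 (adjusted p = 0.535, limma), and it passed the test at 0.45 ± 0.12 (adjusted p = 0.026) when libraries were weighted by their quality. That weighted fit called 1287 of 20006 symbols (6.43%), against 2 without weights. Rps2, at the entry of the messenger RNA channel, gave 123, 144 and 204 RPKM on the normal diet and 157, 192 and 249 RPKM on the rescue diet, with a log2 fold change of 0.39 ± 0.16 (adjusted p = 0.542, limma). Rplp2 stood at 0.38 ± 0.18 (adjusted p = 0.575). The villus markers had a median log2 fold change of -0.997 with 0 of 14 called. With their score in the fit the members' median turned to -0.20.

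Whether the effect of 1,25D differed between diets was tested as an interaction (rescue minus normal diet). By limma 0 of 82 members passed, against 0.00500% of all symbols, and 0 of 82 had an unadjusted p under 0.05, against 6.85% of all symbols. The median was -0.01 over members and 0.01 over all symbols, and it turned to 0.02 to 0.14 under other scalings. It was 0.12 over members and 0.10 over all symbols without normal vehicle replicate 6. With the villus score in the fit it was -0.46 over members and -0.14 over all symbols. In that fit 76 of 82 members were below 0, against 61.4% of all symbols, and 20 had an unadjusted p under 0.05, against 12.3% of all symbols, with 0 called. The 4 smallest p belonged to Rpl24 (0.75 ± 0.38, adjusted p = 0.778), Fau (-0.38 ± 0.19, adjusted p = 0.781), Rpl28 (0.39 ± 0.21) and Rpl36a (0.87 ± 0.48), the last 2 with an adjusted p of 0.808. Leaving out the same library gave 0.97, -0.31, 0.48 and 1.08 in this order, with adjusted p from 0.466 to 0.783. The interval of an interaction is wider, and 73 of 82 members had it within 2-fold, against 64.0% of all symbols.

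Genes often used as internal references or with a second product were described in the same fits, and none was called. Rplp0, the base of the stalk, gave log2 fold changes of -0.05 ± 0.18 and -0.13 ± 0.18 for 1,25D on the normal and rescue diets, and its median level was 436 RPKM in normal diet with vehicle. Rpl13a gave -0.37 ± 0.21 and -0.20 ± 0.21, and Rps18 gave -0.15 ± 0.21 and -0.25 ± 0.21. Rpsa, also known as a laminin receptor, gave -0.20 ± 0.17 and -0.16 ± 0.17. Rps27a, made as a fusion with ubiquitin, gave -0.29 ± 0.18 and -0.01 ± 0.18. Rplp1 gave -0.25 ± 0.17 and -0.16 ± 0.17. Rpl5 gave -0.15 ± 0.20 on the normal diet, with a 95% interval from -0.57 to 0.26. Without normal vehicle replicate 6, 1,25D on the normal diet gave -0.19 for Rplp0, -0.51 for Rpl13a, -0.26 for Rps18, -0.35 for Rpsa, -0.44 for Rps27a, -0.30 for Rplp1 and -0.25 for Rpl5, with adjusted p from 0.196 to 0.716.

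The share of each paralog in the summed level of its pair is given for the 4 groups. Rps27l made 56.1 ± 7.76% of the summed Rps27 and Rps27l level in normal diet with vehicle, and 46.6 ± 8.92%, 47.5 ± 7.10% and 47.2 ± 10.1% in normal diet with 1,25D, rescue diet with vehicle and rescue diet with 1,25D (SD, n = 6 each). Rpl22l1 made 13.7 ± 2.60%, 13.6 ± 2.85%, 13.9 ± 3.38% and 17.99 ± 3.09% of its pair in the same order. Rpl7l1 made 5.38 ± 0.968%, 6.90 ± 0.702%, 6.33 ± 1.84% and 7.23 ± 1.26%. Rps4y2 made 6.70 ± 1.02%, 8.06 ± 0.360%, 9.08 ± 3.03% and 8.41 ± 2.20% of its pair with Rps4x. Groups overlap in each case, and the shares were not tested. Rpl39l made 0.434 ± 0.474%, 0.850 ± 0.840%, 1.16 ± 1.85% and 2.74 ± 2.05% of its pair in the same order, and the group means of Rpl3l and Rpl10l stayed under 0.2%. At 50 bases, Rpl39l and Rpl3l shared no stretch with the transcript of another gene. The genes sharing stretches with Rps27l (4), Rpl10l (1), Rpl22 (4) and Rpl7 (13) were all pseudogenes. Rps4y2 was not matched, so its pair was not checked. Reads shared with pseudogenes can still alter a share, so the split is uncertain.

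The rest of the translation machinery gave the same count of calls. In each of the 5 comparisons, limma called 0 of 42 translation factors, 0 of 52 ribosome assembly genes, 0 of 23 genes of mTORC1 and TOP regulation and 0 of 76 mitochondrial ribosomal protein genes. For 1,25D on the normal diet 12 of 52 assembly genes had an unadjusted p under 0.05, against 12.0% of all symbols, with a median log2 fold change of 0.28. Translation factors had 5 of 42 with a median of 0.09, mTORC1 and TOP regulation 1 of 23 with a median of 0.04, and mitochondrial ribosomal proteins 4 of 76 with a median of 0.09. On the rescue diet 1,25D gave medians of 0.18, 0.02, -0.03 and 0.04 in the order assembly, factors, regulation and mitochondrial. An unadjusted p under 0.05 was found for 1, 0, 0 and 2 of these genes, against 4.83% of all symbols. For diet under vehicle 16 of 76 mitochondrial ribosomal protein genes had an unadjusted p under 0.05, against 7.18% of all symbols, with a median of 0.23. Mrpl24 among them gave 0.33 ± 0.11 (adjusted p = 0.578). In that comparison 4 of 42 factors, 3 of 52 assembly genes and 0 of 23 regulators did so. This comparison and that of 1,25D on the normal diet both use normal vehicle replicate 6. There the mitochondrial ribosomal protein genes summed to 732 RPKM, against 984 to 1316 RPKM in the other libraries of its group. Assembly genes summed to 509 RPKM, against 612 to 937 RPKM. Counts without that library are not given for these lists. After 1,25D the diets gave 4 of 42, 0 of 52, 4 of 23 and 9 of 76 in the order factors, assembly, regulation and mitochondrial, against 8.38% of all symbols. For the interaction the counts in this order were 0, 1, 0 and 2, against 6.85% of all symbols. Rpl36al, a close relative of Rpl36a, and the pseudogene Rps19-ps3 lie outside the rule, and limma called neither in any of the 5 comparisons. For diet under vehicle Rps19-ps3 had a log2 fold change of 0.49 ± 0.19 (unadjusted p = 0.0156, limma) and Rpl36al one of 0.23 ± 0.14.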

How the data were processed

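RNA from 24 duodenum libraries in 4 groups of 6 was sequenced. Libraries were directional and made from 8 µg of total RNA after DNase and removal of ribosomal RNA, per the labels' protocols. The submitters' processing notes name TopHat and mm9, and the quantifier is not given in the sources used here. For each library the authors deposited RPKM values in 30795 rows, per the file headers. Here, rows sharing a symbol were summed (99 rows for the 85 members). RPKM values carry no read totals, so the depth is unknown; summed RPKM ran from 541395 to 697913.

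Values of log2(RPKM + 0.5) were fitted with limma 3.58.1 (R 4.3.3; trend in the variance prior), 1 mean per group over all 24 libraries, for 20006 symbols with 0.5 RPKM or more in at least 6 libraries, two-sided, with Benjamini-Hochberg adjustment over all of them and a threshold of 0.05. Fold changes on this scale understate those of low genes. The fit was tested on simulated data. Python 3.11.15, numpy 2.4.6, pandas 2.3.3 and matplotlib 3.10.9 read tables and drew figures.

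Genes named are the 4 smallest p per comparison, the 5 highest and 5 lowest levels, the 5 most variable, the paralog pairs and 8 stalk, fusion and reference genes, 37 in all; others are marked as chosen after their values were seen or serve as examples of sequence or list. Members and lists were chosen with earlier results of these data known. Alternatives covered scaling, pseudocount, filter, weights, covariates, the replicate number as a block and leaving out libraries. Promoters are from RefSeq GRCm38.p6 and transcripts from GENCODE vM21. Results for some genes are not reported here by name.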

Additional observations from a re-analysis of the deposited data

Results flagged for a closer look

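In 140 groups of 6 values (the named genes that were tested, on the log2 scale, and the members' share of summed RPKM, in each of the 4 groups), 6 had a library set apart from the other 5 by a gap larger than Dixon's 95% critical value for 6 samples, and chance alone flags about 1 in 20. Rpl38 in normal vehicle replicate 6 was 0.997 RPKM, against 4.27 to 7.36 RPKM in the other 5 libraries. Rps27l in the same library was 25.0 RPKM, against 38.0 to 48.0 RPKM. Rpl10 in rescue vehicle replicate 2 was 190.4 RPKM, against 259.0 to 304.6 RPKM. Rps2 in rescue vehicle replicate 6 was 277.5 RPKM, against 191.7 to 217.1 RPKM. Rpl7 in normal 1,25D replicate 2 was 359.0 RPKM, against 437.4 to 464.1 RPKM. Rpl39l in normal 1,25D replicate 6 was 0.736 RPKM, against 0.064 to 0.245 RPKM. Of these 6, 3 lie in normal vehicle replicate 6 and rescue vehicle replicate 2, the libraries that were lowest of their group in 70 of 82 ribosomal protein genes.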

How the results depend on the processing

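A median counts as unmoved here if it changed by less than 0.26 on the log2 scale, 1 SD between libraries, even where its sign turned, and a count if it stayed within 1.5 times. Every median as described is smaller in size than this tolerance, so the tally does not show that their direction held. Over all alternatives, 414 values that answer a comparison stayed as reported and 6 moved, and of the single genes 832 stayed and 3 passed the test that had not. The count of members called moved from 0 to 1 with upper-quartile scaling (Rpl28) and with the villus score as a covariate (Rpl7l1) for 1,25D on the normal diet, and to 1 with library weights (Rpl28) for diet after 1,25D. Those fits called 369, 182 and 1287 of 20006 symbols, against 368, 368 and 2 as described. On the normal diet the villus marker sums do not overlap between vehicle and 1,25D, so that covariate is poorly separated from the injection. The villus score also moved the median log2 change to 0.215 (1,25D on the normal diet), -0.1968 (diet after 1,25D) and -0.464 (interaction), and within that tolerance to 0.26 (diet under vehicle) and -0.21 (1,25D on the rescue diet); the cause was not tested. With 1 library left out at a time, 0 members were called by limma throughout, and the median ran from -0.21 to -0.01 for 1,25D on the normal diet, from -0.20 to -0.06 on the rescue diet, from -0.04 to 0.20 for diet under vehicle, from 0.03 to 0.12 for diet after 1,25D and from -0.11 to 0.12 for the interaction. It turned sign in diet under vehicle and in the interaction. Counts at an unadjusted p under 0.05 for 1,25D on the normal diet ran from 3 to 21 over the other alternatives. The members' share of summed RPKM, 2.55% over 24 libraries, was 2.57% with the highest row per symbol and 2.59% without the pancreas list, both added after the data were seen. Replicate numbers share only a number: deviations of same-numbered libraries correlated between -0.44 and 0.48 (median 0.00), and 3 of 24 libraries correlated best with their own number. With the replicate block 0 members were called in all 5 comparisons, and the medians were -0.07, -0.10, 0.10, 0.08 and -0.01. The comparison limited to the 12 libraries compared gives no value for the interaction. With RPKM alone, depth and counting error are unknown, which limits Rps21, Rps29, Rpl38 and the low paralogs most.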
